A study of Mus musculus with 2 samples.

Results

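Macrophages and monocytes of the CCl4-injured liver were chosen by a rule on unique molecular identifiers (UMIs), each of which stands for 1 counted RNA molecule. A cell of the CCl4 library with at least 1000 UMIs, of which at most 30% came from mitochondrial genes, was a member when Csf1r, Cd68, C1qa, C1qb, Ccr2 and Adgre1 together gave at least 5 UMIs, Cd3e and Cd79a gave none, Retnlg and Csf3r together gave at most 2 and Col1a1 gave at most 10. The rule found 164 of 7130 kept cells, or 2.30% (exact binomial 95% interval 1.96 to 2.68%). Among all 12710 kept cells of the study, the rule was applied to the 5580 healthy cells only for comparison.

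The study profiled liver cells by droplet RNA sequencing in 1 library of healthy mice and 1 library of CCl4-injured mice, both of the genotype Col1a2CreER:Rosa26tdTomato on a C57BL/6 background, in which the Col1a2 promoter drives a tamoxifen-inducible recombinase in collagen-producing cells. Per the study's methods, mice of 8 to 10 weeks and both sexes received intraperitoneal CCl4, a hepatotoxin, at 2.5 µL per g of a 10% solution in corn oil, 2 times a week for 12 weeks, with tamoxifen given during fibrosis. The livers were digested with pronase and collagenase, purified on a Nycodenz gradient and depleted of CD45+ cells with magnetic beads, a step that removes most leukocytes, so that members which carry CD45 are cells that the beads left. Ptprc, the gene of CD45, had at least 1 UMI in 40 of 59 resident and 51 of 53 recruited cells, groups that are defined below. How many mice went into a library is not given in the sources used here, and what share of each kind of macrophage the beads removed was not tested.

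The liver holds 2 kinds of mononuclear phagocyte that these genes set apart. Kupffer cells are long-lived resident macrophages of the sinusoids that clear particles, red cells and bacteria from portal blood and carry Clec4f, Vsig4 and Cd5l. Monocytes enter an injured liver from blood under the chemokine receptor Ccr2, carry Ly6c2 when classical, and can become macrophages at the scar. The complement chains C1qa, C1qb and C1qc are made by tissue macrophages in general.

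The injured library held 8460 cells, 97611831 UMIs and a median of 13055 UMIs per kept cell. The members had a median of 7186 UMIs and 2396 genes. The healthy library held 6297 cells and a median of 7135 UMIs per kept cell. There were 10 barcodes shared by the libraries, and 0 of them belonged to members. With 1 library in each group there is no replicate error, so no test was made, and every interval given covers counting error only. Levels are UMIs summed over a group of cells per 1000000 UMIs (CPM) with exact Poisson 95% intervals, and ratios have exact conditional binomial 95% intervals. Levels of different genes are not compared.

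Promoters are shown for C1qb and C1qc, which are complement genes of macrophages, for Marco, which had the largest resident ratio, and for Chil3, a gene of the recruited cells. Each line holds the 250 bases before the start of the gene, 5′ to 3′ on its own strand, from RefSeq on GRCm38.p6, and capitals mark exact matches on either strand of GAGGAAGT (bound by PU.1), TGCTGA (a MAF half-site) or TGGGAA (an RBPJ core).
C1qb: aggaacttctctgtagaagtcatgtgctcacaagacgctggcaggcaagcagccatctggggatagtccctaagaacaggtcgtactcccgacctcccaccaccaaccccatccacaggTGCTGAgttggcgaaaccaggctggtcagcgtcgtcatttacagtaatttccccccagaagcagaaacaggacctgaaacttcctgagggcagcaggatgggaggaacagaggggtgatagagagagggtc
C1qc: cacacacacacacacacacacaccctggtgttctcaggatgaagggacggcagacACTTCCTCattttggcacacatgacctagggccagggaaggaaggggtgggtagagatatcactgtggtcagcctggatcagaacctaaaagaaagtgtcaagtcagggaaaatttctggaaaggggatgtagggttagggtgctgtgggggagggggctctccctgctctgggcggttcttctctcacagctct
Marco: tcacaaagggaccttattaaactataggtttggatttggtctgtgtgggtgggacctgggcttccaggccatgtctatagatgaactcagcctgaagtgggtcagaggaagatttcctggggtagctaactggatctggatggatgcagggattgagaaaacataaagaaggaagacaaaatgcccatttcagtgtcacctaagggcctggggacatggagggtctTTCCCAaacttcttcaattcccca
Chil3: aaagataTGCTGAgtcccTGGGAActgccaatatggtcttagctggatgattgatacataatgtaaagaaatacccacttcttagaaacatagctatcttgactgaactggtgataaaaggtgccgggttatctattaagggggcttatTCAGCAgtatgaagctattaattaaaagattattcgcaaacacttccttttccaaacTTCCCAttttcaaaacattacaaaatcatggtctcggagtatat
The windows lie on the minus strand at chr4:136886201-136886450 (C1qb), chr4:136892915-136893164 (C1qc), chr1:120505025-120505274 (Marco) and chr3:106167565-106167814 (Chil3). C1qb held 1 MAF half-site, C1qc 1 PU.1 match, Marco 1 RBPJ core, and Chil3 2 MAF half-sites and 2 RBPJ cores. Among 32536 promoters of that length, 2.45% held the PU.1 letters, 16.1% the MAF half-site and 21.6% the RBPJ core. These matches are a description of letters and not of bound sites.

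The values that chose the members were as follows. The 6 genes summed to between 5 and 285 UMIs in a member, with a median of 16. C1qa and C1qb gave 33.8% and 38.7% of that sum, Csf1r, the receptor for the growth factor on which macrophages depend, gave 11.2%, and Cd68, Adgre1 and Ccr2 gave 6.53%, 4.93% and 4.81%. A cell could thus enter by its complement UMIs alone. Of 196 kept cells with at least 5 UMIs of the 6 genes, 2 were left out by Cd3e or Cd79a, 1 by the neutrophil genes and 29 by Col1a1. Just inside the limit, 28 kept cells had exactly 5 UMIs and 21 of them were members. Just outside it, 34 had exactly 4 UMIs, 22 of which passed all other limits.

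Within the class, 59 cells (36.0%, 28.6 to 43.8%) had at least 2 UMIs of Clec4f, Vsig4 and Cd5l and are called resident, and 53 cells (32.3%, 25.2 to 40.1%) had at least 2 UMIs of Ccr2 and Ly6c2 and are called recruited. A further 6 cells passed both limits and 46 cells (28.0%, 21.3 to 35.6%) passed neither. Resident cells held between 2 and 337 UMIs of their 3 genes (median 30), and recruited cells between 2 and 89 of theirs (median 10). Few cells lay near a limit. There were 4, 3 and 1 members with 1, 2 and 3 UMIs of the resident genes, and 3, 5 and 4 with as many of the recruited genes. These groups are ranges of a count and not types. Ly6c2 shares most of its sequence with Ly6c1, and their reads may have been split.

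**Figure D1:**
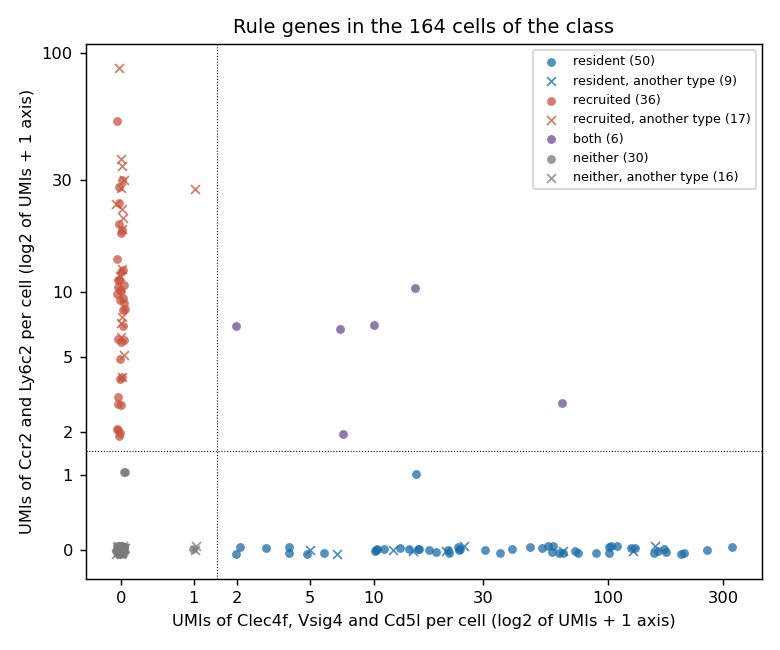
Each point is 1 of the 164 members, placed by its UMIs of Clec4f, Vsig4 and Cd5l (x, log2 of UMIs + 1) and of Ccr2 and Ly6c2 (y, log2 of UMIs + 1), with dotted lines between 1 and 2 UMIs and crosses for cells that carry genes of another cell type. The 59 resident cells lie along the bottom, the 53 recruited cells along the left side, and only 6 cells lie beyond both lines.

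Genes that the rule did not use were checked against the label. Lyz2, the lysozyme of myeloid cells, had at least 1 UMI in 80.5% of members (73.6 to 86.3%) at a median of 7186 UMIs per cell, against 4.65% (1.28 to 11.5%) of 86 T and NK cells of the same library at a median of 4346. Thinned to 1000 UMIs per cell, the shares were 74.7% and 0.658%. Ctss, a lysosomal protease of antigen-presenting cells, had 1574 CPM in the class and 18.1 CPM in T and NK cells, and Tyrobp, a signalling adaptor that NK cells also use, had 2274 CPM and 474 CPM. Of 14 pan-myeloid genes, 10 were at least 2-fold higher in the class than in T and NK cells, where 20.5% of all 9354 compared genes were. Together Lyz2, Ctss, Tyrobp and Fcer1g summed to at least 10 UMIs in 142 of 164 members. The 15 genes with the largest ratio of the class to all other kept cells of the library included Timd4 (738-fold), Ms4a7 (518-fold), C1qc (457-fold), Cd207 (447-fold), Folr2 (366-fold), Marco (356-fold), Treml4 (315-fold), the Fc receptor Fcgr1 (312-fold) and the protease Ctss (216-fold), the rest being C3ar1, Ms4a6c, Clec4a3, Clec4a1, Ms4a6d and Cd300c2, and 16.5% of genes were at least 2-fold higher in that comparison.

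A part of the members carried genes of another cell type. Limits on such genes were set after the values were seen, in the gaps between cells with many and few such UMIs, except that mesenchymal genes left no clear gap (17 and 20 UMIs on either side). The 13 cells with at least 10 UMIs of Siglech, Ccr9, Klk1, Cox6a2 and Ly6d, genes of plasmacytoid dendritic cells, held 23 to 66 of them while no other member held more than 2, and all 13 were called recruited. The 18 cells with at least 10 UMIs of the endothelial genes Kdr, Ptprb, Clec4g, Egfl7, Stab2 and Tie1 held 19 to 149, while no other member held more than 4, and 15 of the 18 were in the group with neither set. In 16 of those 18 the only UMIs of the 6 rule genes were C1qa and C1qb, and 16 had fewer than 10 UMIs of Lyz2, Ctss, Tyrobp and Fcer1g. These cells match the class by its rule but not by its other genes.

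Smaller numbers carried mesenchymal genes (10 cells with 20 to 394 UMIs), mesothelial genes (7 cells with 12 to 186), granulocyte genes (2 cells with 77 and 1285) and T and NK genes (1 cell with 58). In all, 42 members passed such a limit, of which 9 were resident, 17 recruited and 16 in neither group, and 7 of the 42 were among the 572 kept cells with the highest doublet scores. Whether the others are doublets was not tested. Levels below are therefore given for the 122 members past no limit (50 resident, 36 recruited, 6 with both sets and 30 with neither; restricted class) unless all members are named. The restricted groups summed to 367333, 312665, 51184 and 186458 UMIs, and those totals limit their precision.

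**Figure D2:**
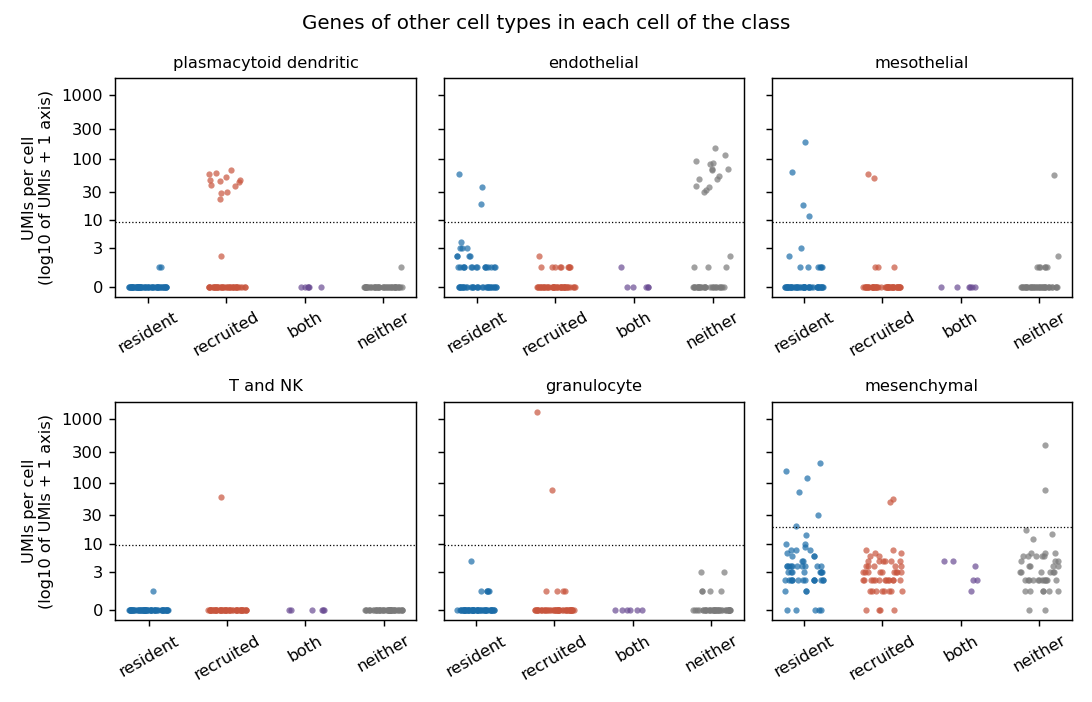
Each point is a member, placed by group on the x axis and by its UMIs of the genes of 6 other cell types on the y axis (log10 of UMIs + 1), with a dotted line at the limit of 10 UMIs (20 for mesenchymal genes). The 13 cells over the plasmacytoid dendritic line are all recruited, and 15 of the 18 cells over the endothelial line are in the group with neither set.

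The question of the main comparison was how resident and recruited cells of the injured liver differ outside the genes that define them. Over all members, 1508 of 9354 genes (16.1%) were at least 2-fold higher in resident cells and 1054 (11.3%) in recruited cells. In the restricted class the numbers were 1020 of 7421 (13.7%) and 840 (11.3%). With the mean CPM of each cell in place of summed UMIs, the resident share of these genes fell from 58.9% to 48.4%, and with every cell thinned to 1000 UMIs it was 48.7%, so neither group had the larger number of genes under every scaling. The groups were cut on the same cells, and these counts describe them.

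Kupffer cell genes were higher in resident cells. Of 12 such genes, 11 were at least 2-fold higher in resident cells over all members and in the restricted class, with a median log2 ratio of 4.13 and 4.50 beside 0.06 over all genes in each. Marco, a scavenger receptor for bacteria, had 1946 CPM in resident cells (1806 to 2095) and no UMI in recruited cells, a difference of at least 203-fold. It was uneven, with UMIs in 23 of 50 resident cells and 29.5% of them in 1 cell.

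Slc40a1, the iron exporter ferroportin, had 1614 CPM in resident cells and 19.2 CPM in recruited cells, which is 84.1-fold (38.4 to 230), and its UMIs were spread over 40 of 50 resident cells with a median of 7 and a highest value of 89. Timd4, a receptor for apoptotic cells, had 313 and 9.59 CPM (32.6-fold, 10.9 to 161). C6, a terminal complement component, had 321 and 3.20 CPM, with a single UMI behind the recruited value (100-fold, 17.7 to 4000). These genes were thus at or near the level of a few UMIs in recruited cells.

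Transcription factors of the Kupffer cell program had the same order. Nr1h3, the oxysterol receptor LXRα, had 400 CPM in resident and 51.2 CPM in recruited cells (7.82-fold, 4.66 to 14.0), and Spic, which red pulp and bone marrow macrophages also need, had 191 and 9.59 CPM (19.9-fold, 6.52 to 98.6). Id3 was the exception among the 12 genes, with 784 and 620 CPM (1.26-fold, 1.05 to 1.52). Cdh5, a cadherin best known in endothelium, had 250 CPM in 26 of 50 resident cells of the restricted class and no UMI in recruited cells. Of 16 macrophage transcription factors measured in the restricted class, 4 were at least 2-fold higher in resident and 4 in recruited cells. Among the latter, Rbpj, the effector of Notch signalling, had 27.2 CPM in resident and 112 CPM in recruited cells (4.11-fold higher in recruited cells, 1.99 to 9.31), and Klf4, a factor of monocyte development, had 142 and 297 CPM (2.10-fold, 1.48 to 3.01).

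The 15 genes with the largest resident ratio over all members were Marco, Slc40a1, Fcna, Fabp7, Mt2, Clec1b, Cxcl13, C6, Timd4, Cela1, Vcam1, Apoc1, Il18bp, Dmpk and Spic. Fcna, a ficolin of the lectin pathway of complement, had 555 CPM in resident cells against 1 UMI in recruited cells (174-fold, 30.8 to 6892). Clec1b, a lectin receptor, had 490 and 12.8 CPM (38.3-fold, 14.7 to 142), and Vcam1, an adhesion molecule for leukocytes, had 653 and 19.2 CPM (34.0-fold, 15.4 to 93.7). Cxcl13, the chemokine that draws B cells, had 604 and 9.59 CPM but came from only 15 of 50 resident cells. Mt2, a metallothionein, was on this list through 1 cell, which held 79.7% of its resident UMIs, and in the restricted class it had 4 UMIs in resident cells and 1 in recruited cells (3.40-fold, 0.337 to 168).

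**Figure D3:**
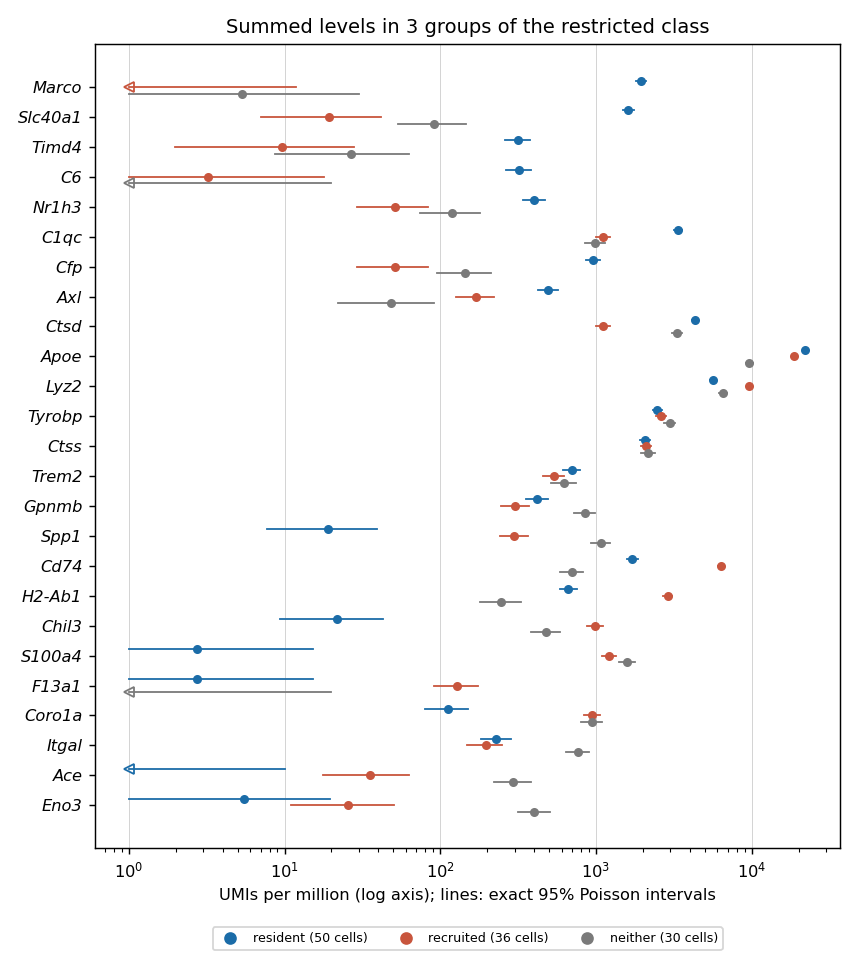
Summed levels (CPM, log axis) of 25 genes in the 50 resident, 36 recruited and 30 remaining cells of the restricted class, with exact 95% Poisson intervals as lines and open triangles at the left edge for genes with no UMI. Marco, Slc40a1, Timd4 and C6 are furthest right in resident cells, Cd74, H2-Ab1 and F13a1 in recruited cells, and Ace and Eno3 in cells with neither set, while Tyrobp and Ctss nearly coincide.

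Resident cells also held more RNA of uptake and digestion genes. All 10 measured scavenger and efferocytosis receptors were at least 2-fold higher in resident cells over all members, and 8 of 10 in the restricted class (median log2 ratios 2.24 and 1.90). Axl and Mertk, receptors for apoptotic cells, had 490 and 261 CPM in resident cells against 170 and 60.8 CPM in recruited cells. Mrc1, the mannose receptor, had 460 and 154 CPM (3-fold, 2.16 to 4.22). Of 15 lysosomal genes, 8 were at least 2-fold higher in resident cells and none in recruited cells, and Ctsd and Lgmn, lysosomal proteases, had 4323 and 1835 CPM against 1113 and 422 CPM. Of 9 iron handling genes, 7 were at least 2-fold higher in resident cells of the restricted class (6 over all members), Hmox1, which opens haem, having 381 and 57.6 CPM (6.62-fold, 4.04 to 11.5).

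Complement genes were mixed. C1qc, which unlike C1qa and C1qb is no gene of the rule, was higher in resident cells (3370 against 1110 CPM, 3.04-fold, 2.69 to 3.43), as was properdin, Cfp (958 and 51.2 CPM, 18.7-fold, 11.4 to 33.1). C3, the central component, had 101 and 182 CPM in the restricted class but 1541 and 879 CPM over all members, where resident cells had the larger value and single cells held 56.4% and 52.8% of the UMIs. T and NK cells of this library had 2478 CPM of C3, more than any of these groups. Of these 86 cells, 3 passed the mesothelial and 3 the mesenchymal limit, and their part in that level was not tested. The part of free RNA in the C3 level was not tested either. Of the complement genes outside the rule, 4 of 9 were at least 2-fold higher in resident cells and 1 in recruited cells over all members, and 2 of 8 in each group in the restricted class (median log2 ratios 0.81 and 0.10).

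Recruited cells were set apart by classical monocyte genes. Of 12 such genes, 10 were at least 2-fold higher in recruited cells over all members (median log2 ratio −2.79) and 11 in the restricted class (−2.76). Chil3, a chitinase-like protein of monocytes and alternatively activated macrophages, had 988 CPM in recruited cells (881 to 1105) and 21.8 CPM in resident cells, all 8 UMIs of which came from 1 cell. The ratio was 45.4-fold (22.7 to 106). Chil3 has a close copy, Chil4, with which its reads may have been shared.

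S100a4, a calcium-binding protein of motile cells, had 1215 CPM in recruited cells and 2.72 CPM (1 UMI) in resident cells, and its median was 8.5 UMIs per recruited cell. T and NK cells had 472 CPM of it, so it is no marker of monocytes in this library. F13a1, the clotting factor subunit of classical monocytes, had 128 CPM in 9 of 36 recruited cells and 1 UMI in resident cells (47.0-fold, 7.96 to 1902). Plac8 had 1948 and 474 CPM (4.11-fold, 3.47 to 4.89) and Hp, haptoglobin, 278 and 24.5 CPM (11.4-fold, 5.71 to 25.7). Among genes of migration, 7 of 9 chemokine receptors and adhesion genes were at least 2-fold higher in recruited cells, among them Cx3cr1 (374 and 109 CPM), Itga4 (275 and 101 CPM) and Ccr1 (86.4 and 10.9 CPM). Chemokines themselves were split 4 and 4 among 14 in the restricted class, with Ccl2, the ligand of Ccr2, at 233 CPM in recruited and 68.1 CPM in resident cells (3.43-fold, 2.15 to 5.64). Over all members Ccl2 had 166 and 171 CPM, and 1 cell held 58.0% of the resident UMIs.

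The list of 15 genes with the largest recruited ratio over all members was S100a9, S100a8, S100a4, Chil3, Siglech, Ighm, Rnase6, Lsp1, Ccl5, Gzma, Klk1, Prtn3, Iglc3, Napsa and Ccr9, and much of it came from the cells of other types. S100a8, which had 1586 CPM in recruited cells over all members, had 2 UMIs in the restricted class. Siglech went from 411 CPM to 2 UMIs, and Klk1, Iglc3, Ccr9 and Gzma from at least 196 CPM to no UMI. S100a4, Chil3, Lsp1, Ighm, Rnase6, Ccl5 and Napsa were also among the 15 of the restricted class, which added Cxcl9, S100a6, Emb, Hist1h2ap, Fcgr2b, F13a1, Spp1 and Anxa1. Lsp1, a leukocyte actin-binding protein, had 662 and 16.3 CPM there (40.5-fold, 18.3 to 112). Cxcl9 rested on 2 recruited cells and Ccl5 on 4. Ighm, the heavy chain of IgM, had 195 CPM in 21 of 36 recruited cells and none in resident cells, in the absence of Cd79a by the rule.

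**Figure D4:**
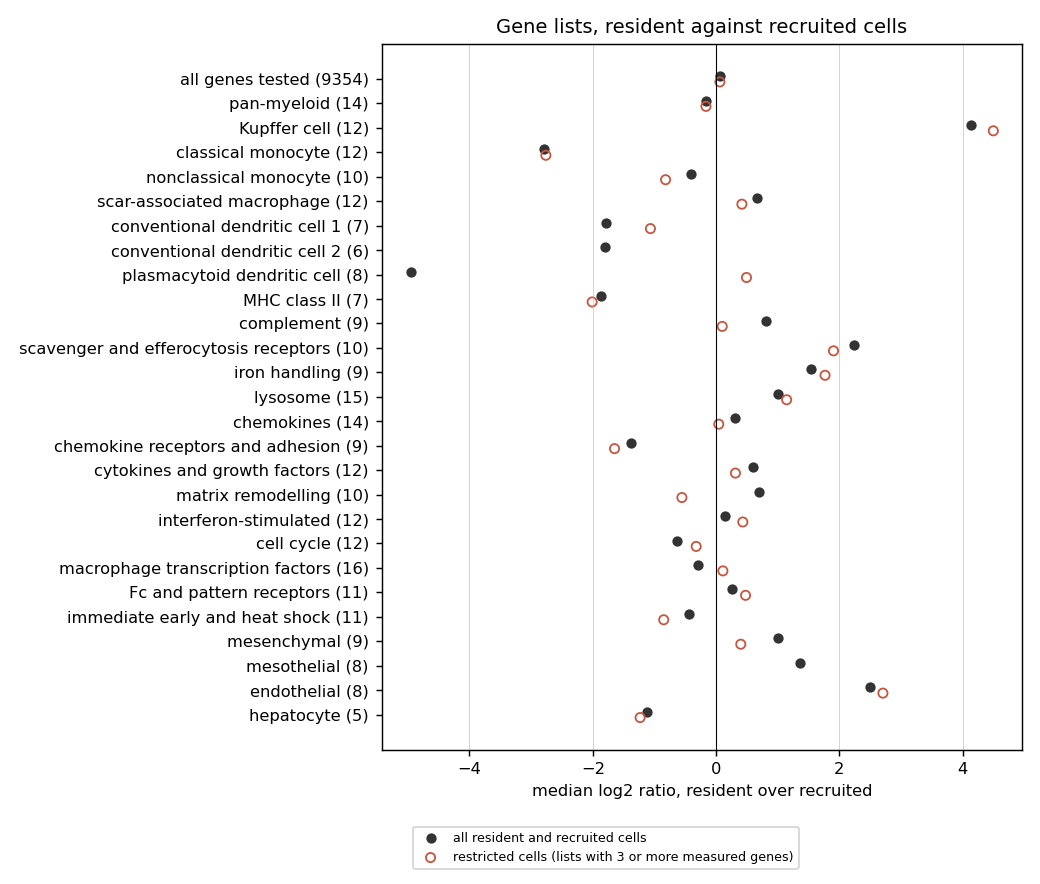
Median log2 ratio of resident over recruited cells (x axis) for each list with at least 5 measured genes, whose number over all members stands in brackets, with filled points for all members and open points for the restricted class. Kupffer cell genes lie furthest right (4.13 and 4.50), and the plasmacytoid dendritic list moves from −4.95 over 8 genes to 0.49 over 3 when the cells past a limit are left out.

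Antigen presentation by MHC class II was higher in recruited cells for all 7 genes of the list over all members and in the restricted class (median log2 ratios −1.87 and −2.01). Cd74, the invariant chain, had 6345 CPM in recruited cells and 1707 CPM in resident cells (3.72-fold, 3.40 to 4.07), and H2-Ab1 had 2878 and 664 CPM (4.33-fold, 3.76 to 5.01). Ciita, the master regulator of these genes, had 89.6 and 21.8 CPM (4.11-fold, 1.83 to 10.4). Summed over the list, a recruited cell had between 0 and 499 UMIs with a median of 29.5, and a resident cell between 0 and 220 with a median of 2. The groups overlapped widely. There were 18 of 36 recruited cells with at least 20 such UMIs and 13 with fewer than 5, and 11 of 50 resident cells with at least 20. All 6 cells past both limits had at least 11. These counts per cell are not scaled to depth, which had a median of 8372 UMIs in recruited and 5723.5 UMIs in resident cells.

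Genes of scar-associated macrophages did not separate the groups as a list. Over the restricted class 4 of 12 were at least 2-fold higher in resident and 1 in recruited cells (median log2 ratio 0.42). Trem2, a lipid receptor, had 700 and 534 CPM (1.31-fold, 1.07 to 1.60), and Gpnmb, a glycoprotein of lipid-laden macrophages, had 419 and 304 CPM (1.38-fold, 1.06 to 1.80). Both came from part of the cells, Gpnmb from 10 of 50 resident and 7 of 36 recruited cells, 1 of which held 54.7% of the recruited UMIs. Spp1, osteopontin, was the member higher in recruited cells, with 297 CPM in 8 of 36 cells against 19.1 CPM in 3 of 50 (15.6-fold, 7.28 to 39.9). Lpl, lipoprotein lipase, had 1571 CPM in resident and 480 CPM in recruited cells (3.27-fold, 2.73 to 3.95). It had UMIs in 35 of 50 resident cells (median 2), 1 of which held 46.6% of them. In recruited cells 1 cell held 76.7% of the UMIs, so that level rests mainly on a single cell. Mmp12, the macrophage elastase, had 245 and 92.8 CPM, of which 1 resident cell held 67.8% and 1 recruited cell 89.7%.

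Among the soluble mediators, Igf1 had 768 CPM in resident and 95.9 CPM in recruited cells (8-fold, 5.48 to 12.1), Il18 136 CPM and 5 UMIs, and Il1a 78.9 CPM and 1 UMI. Il1b (308 and 368 CPM; ratio 0.836, 0.639 to 1.09) and Tgfb1, the main fibrogenic cytokine (259 and 230 CPM; 1.12, 0.818 to 1.55), had intervals that include no difference. Pan-myeloid genes were near each other as well, with Tyrobp at 2480 and 2616 CPM and Ctss at 2069 and 2088 CPM, while Lyz2 was 1.73-fold (1.63 to 1.83) higher in recruited cells. Immediate early and heat shock genes, which rise in digestion of tissue, were at least 2-fold higher in recruited cells for 5 of 11 genes and in resident cells for 1, with Hspa1a at 870 and 172 CPM (701 CPM in T and NK cells) and Atf3 at 745 and 199 CPM. The part of cell isolation in any group difference was not tested. Cell cycle genes summed to at least 10 UMIs in 2 resident and 3 recruited cells.

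The 30 restricted cells with neither gene set were myeloid by genes outside the rule. They had 6516 CPM of Lyz2, 2156 CPM of Ctss and 2966 CPM of Tyrobp at a median of 5685.5 UMIs per cell. Nonclassical monocyte genes, those of the patrolling cells of blood vessels, summed to 3593 CPM there against 1005 CPM in resident and 1203 CPM in recruited cells. Cx3cr1, a gene of that list, had 54 UMIs in 20 of 30 cells, against 117 UMIs in 20 of 36 recruited cells. Treml4 had 44 UMIs in 18 cells, against 79 UMIs in 29 of 50 resident and 13 UMIs in 7 recruited cells. With group totals of 186458, 367333 (resident) and 312665 (recruited) UMIs, neither gene set this group clearly apart from both others. Ace, the angiotensin-converting enzyme of patrolling monocytes, had 295 CPM in 14 of 30 cells, 35.2 CPM in recruited cells and no UMI in resident cells, which is 8.38-fold (4.34 to 17.8) above recruited cells.

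Eno3 had 402 CPM in 16 of 30 cells against 25.6 CPM in recruited cells (15.7-fold, 7.58 to 37.7), Spn, the sialophorin CD43, 300.3 against 25.6 CPM (11.7-fold, 5.57 to 28.5) and Itgal, an integrin chain, 762 against 195 CPM (3.90-fold, 2.87 to 5.36). T and NK cells had 190 CPM of Itgal and 79.4 CPM of Spn, and none of Ace. The group was low in C1qc (981 CPM from 12 of 30 cells), Cd74 (697 CPM) and Slc40a1 (91.2 CPM), and it shared S100a4 (1577 CPM) with recruited cells. Its Spp1 level of 1073 CPM came from 6 cells, 1 of which held 76.5%, and its Gpnmb of 847 CPM from 7 cells, 1 of which held 57.0%.

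Clustering of the 164 members without the genes of the rule gave 7 groups, which describe the same cells again. A group of 35 cells, 33 of them resident, was Kupffer cell-like (11 of 12 markers). A group of 39 cells held 10 of 12 classical and 8 of 10 nonclassical monocyte markers and was led by Eno3 and Ace, with 19 recruited cells and 19 with neither set. A group of 33 cells was scar-associated macrophage-like (8 of 12 markers, with Spp1, Ms4a7 and Gpnmb among its leading genes). It held 16 recruited, 5 resident and 7 cells with neither set as well as 5 of the 6 cells past both limits. All 7 MHC class II genes were at least 2-fold higher in it than in other members. Its first gene, Arg1, had 96.1% of its UMIs there in 1 cell. Spp1 came from 9 of the 33 cells, 1 of which held 60.5%, Gpnmb from 15 and Ms4a7 from 23. A group of 12 cells, all recruited and all past a limit, was plasmacytoid dendritic cell-like. The remaining 3 groups, of 20, 17 and 8 cells, were led by mesothelial, endothelial and mixed granulocyte and cycle genes and were left without a name. Of the 20 cells, 15 were resident and 9 passed a limit, and Msln came from 6 and Upk3b from 5 of them. With 20 components the group with mesothelial genes held 6 cells. At a lower resolution there were 4 groups, the largest of which held 84 cells with 11 of 12 classical monocyte markers and 3 of 12 scar-associated ones. With 20 components a group of 44 cells held 6 of 12 scar-associated markers. Its 10 leading genes included 2 of that list and 4 of MHC class II. The scar-associated group thus depended on both settings.

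Other lists gave smaller or less certain differences. Nonclassical monocyte genes were split 3 and 4 among 10 over all members, interferon-stimulated genes 3 and 1 among 12, Fc and pattern receptors 3 and 2 among 11, cytokines and growth factors 4 and 2 among 12 and matrix remodelling genes 4 and 2 among 10 (resident and recruited, in that order). The shares over all genes were 16.1% and 11.3%. In the restricted class (13.7% and 11.3% of all genes) matrix remodelling genes turned to 3 and 4 among 9. Their median log2 ratio went from 0.69 to −0.55. Nonclassical monocyte genes were 2 and 5 among 10 there, and the other lists just named kept their counts. Conventional dendritic cell genes were at least 2-fold higher in recruited cells for 5 of 7 genes of type 1 and 4 of 6 of type 2, but for 3 of 6 and 1 of 2 in the restricted class. Lists of other tissues changed in part when the cells past a limit were left out. Endothelial genes were at least 2-fold higher in resident cells for 8 of 8, mesothelial genes for 6 of 8 and mesenchymal genes for 5 of 9 over all members, and in the restricted class for 2 of 3, none measured and 0 of 6. The endothelial median log2 ratio was 2.5 over all members and 2.71 in the restricted class. Cdh5, which is also on the Kupffer cell list, was 1 of the 3 endothelial genes measured in the restricted class. Hepatocyte genes were at least 2-fold higher in recruited cells for 3 of 5 over all members and 2 of 3 in the restricted class (−1.12 and −1.23). For T and NK, B and plasma, and neutrophil genes, the 3, 3 and 2 measured genes were all at least 2-fold higher in recruited cells over all members, and in the restricted class 1 of 1, 1 of 2 and 0 of 1. Of erythroid and platelet genes, 1 of 2 each was higher in resident cells, 0 of 2 migratory dendritic cell genes differed by that much, and no basophil or mast cell gene reached the minimum of UMIs.

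Genes of the abundant collagen-producing cells had UMIs in many cells that should lack them. Col3a1, a fibrillar collagen, had at least 1 UMI in 66.4% of restricted members and in 67.4% of T and NK cells, which should lack it, at 177 CPM in the restricted class and 286 CPM in those cells. Dcn had at least 1 UMI in 63.1% and 65.1%. Since T and NK cells had such shares too, the shares are not read as expression by macrophages. The 86 T and NK cells were not restricted, and 3 of them passed the mesenchymal limit (54 to 127 UMIs). The part of free RNA in these levels was not tested.

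The same rule gave 45 of 5580 healthy cells (0.806%, 0.589 to 1.08%), of which 14 were resident, 0 recruited and 31 in neither group. For recruited cells, 0 of 5580, the exact binomial 95% interval reached up to 0.0661%, and 3 counts of the total, the floor used for a count of 0, would be 0.0538%. The healthy count is not one of macrophages, however. There were 35 of the 45 cells with fewer than 10 UMIs of Lyz2, Ctss, Tyrobp and Fcer1g, and 33 passed a limit of another type, 22 of them that of endothelial and 14 that of mesothelial genes. The shares of the class in the libraries are therefore not compared, and bead depletion acts on both.

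Resident cells past no limit numbered 11 in the healthy library (140650 UMIs) and 50 in the CCl4 library (367333 UMIs). Their medians were 12486 and 5723.5 UMIs per cell, so numbers of cells with a UMI are not given at equal depth. The comparison of these cells was added after the data were seen. It sets 1 library against 1 library, which were also processed with different software versions, so injury and library cannot be told apart. Of 5670 genes, 349 (6.16%) were at least 2-fold higher in the CCl4 library and 734 (12.9%) in the healthy library. Clec4f, the lectin that marks Kupffer cells, had 8233 CPM in healthy and 2347 CPM in CCl4 resident cells (3.51-fold, 3.21 to 3.84). It is 1 of the 3 genes that chose these cells, and the other two differed less, Vsig4 with 2545 and 1421 CPM (1.79-fold, 1.56 to 2.05) and Cd5l with 6825 and 5404 CPM (1.26-fold, 1.17 to 1.36). Cd163, the haemoglobin receptor, had 441 and 35.4 CPM (12.5-fold, 6.78 to 24.7), with 40.3% of the healthy UMIs in 1 cell, and Folr2 1266 and 417 CPM (3.04-fold, 2.43 to 3.80). Of the 12 Kupffer cell genes 5 were at least 2-fold higher in the healthy and 1 in the CCl4 library (median log2 ratio of CCl4 over healthy −0.92, beside −0.09 over all genes). The exception was Marco, with 277 CPM in healthy and 1946 CPM in CCl4 resident cells (7.02-fold, 5.08 to 9.96), from 6 of 11 and 23 of 50 cells.

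MHC class II genes were at least 2-fold higher in the healthy resident cells for 5 of 7 genes (median log2 ratio −1.61), Cd74 having 6840 and 1707 CPM (4.01-fold, 3.62 to 4.44). Immediate early and heat shock genes moved with them, 6 of 11 at least 2-fold higher in the healthy and 1 in the CCl4 library (median log2 ratio −1.28), with Jun at 1827 and 498 CPM (3.67-fold, 3.02 to 4.46) and Fos at 2076 and 858 CPM (2.42-fold, 2.06 to 2.85). The part of cell isolation in the library differences was not tested. Scar-associated genes ran the other way for 5 of 12 genes. Trem2 had 64.0 CPM in healthy and 700 CPM in CCl4 resident cells (10.9-fold, 5.67 to 24.2). Gpnmb had no UMI and 419 CPM (19.7-fold with the count of 0 raised to 3, lower limit of the interval 15.8). Cd63, a tetraspanin of lysosomes, had 14.2 CPM (2 UMIs) and 362 CPM (25.5-fold, 6.91 to 212). Gpnmb came from 10 of the 50 cells. Spp1 was the reverse, with 142 and 19.1 CPM. Beside these values, Alb, an albumin RNA of hepatocytes, had 412 CPM in healthy and 16.3 CPM in CCl4 resident cells, and Col3a1 no UMI and 201 CPM. The part of free RNA in the other genes was not tested. Hmox1 had 1408 CPM in the healthy cells, of which 81.8% came from 1 cell.

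**Figure D5:**
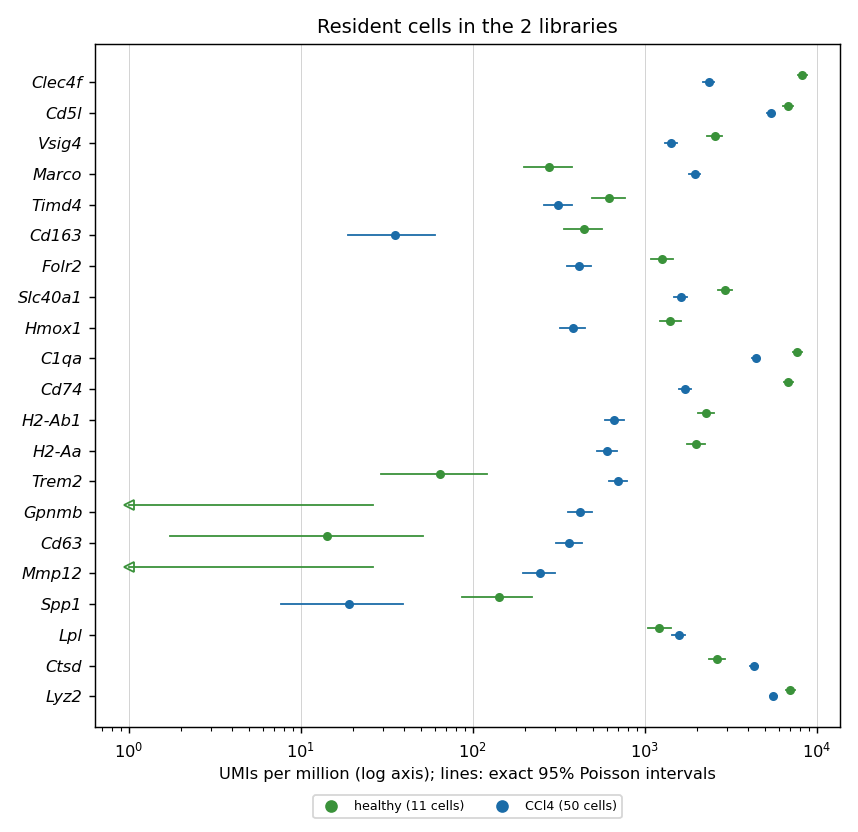
Summed levels (CPM, log axis) of 21 genes in 11 healthy and 50 CCl4 resident cells past no limit, with exact 95% Poisson intervals as lines and open triangles for genes with no UMI. Cd163, Folr2, Cd74 and Clec4f, a gene of the rule, lie further right in healthy cells, and Marco, Trem2, Gpnmb and Cd63 in CCl4 cells.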

How the data were processed

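Counts of UMIs per gene and cell were made by the authors and deposited as 2 matrices, 1 per library, in a droplet workflow (single cell 3′ chemistry, per the labels). The matrix headers name software versions 3.1.0 (healthy) and 6.0.1 (CCl4). The submitters' processing notes also name fastp, featureCounts 1.6.2 and the builds mm10 and GRCh38, and the gene identifiers are of mouse. Every deposited cell had at least 500 UMIs. UMIs were summed over cells with Python 3.11.15 and scipy 1.17.1, and clusters were made with scanpy 1.11.5 (10000 UMIs per cell, log scale, 1000 variable genes without rule genes, 10 components, 15 neighbours, resolution 0.8). A gene was compared when it was no gene of the rule and had at least 10 UMIs over the class, the restricted class or, between libraries, both groups of resident cells. Counts under 3 were raised to 3 for gene choice, log2 ratios and lower bounds. T and NK cells had at least 3 UMIs of Cd3d, Cd3g, Cd3e, Trbc2 and Nkg7 and at most 1 of the 6 rule genes, with the other limits of the class except that on Cd3e.

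Named genes were those of the rule, the 15 largest ratios in each direction among genes with at least 100 CPM in 1 group, outside rule, mitochondrial and ribosomal protein genes and with a ratio interval beyond 1, and members of 33 gene lists. Members and lists were chosen with earlier results of these data known. The limits for other cell types, the restricted class and the healthy resident comparison were chosen after the data were seen. No doublet caller was used for the main values, and leaving out the cells with the highest Scrublet scores was an alternative. TMM scaling used edgeR 4.0.16. The ratio script was checked on simulated data.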

Additional observations from a re-analysis of the deposited data

How the results depend on the processing

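No paired analysis was possible because each group is 1 library. Across the settings that change them the numbers of members (122 to 217), resident cells (50 to 75) and recruited cells (36 to 73) stayed within 1.5 times the reported ones. Thinning each cell to 1000 UMIs left 2418 genes compared, since fewer genes reached the minimum of UMIs. Of these, 209 (8.64%) were at least 2-fold higher in resident and 220 (9.1%) in recruited cells. The shares without thinning were 16.1% and 11.3%, and what lowered them was not tested. Clustering gave 4 groups at resolution 0.4 and 7 with 20 components. The largest group with 20 components held 46 cells, 44 of them resident. It is not the largest group of the main setting, whose 39 cells held 19 recruited cells and 19 with neither set. With the mean CPM of each cell the median log2 ratio of all genes fell by 0.125, and list medians under it are read relative to that shift.

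Some log2 ratios of resident over recruited cells changed sign. With Col1a1 at most 2 UMIs, the mesothelial median and Upk3b were both −0.9987, with Dcn at −0.12, Lum −0.41, Krt7 −1.47, Msln −1.61 and Timp1 −0.47. Without the 572 highest doublet scores, which held 15 members, Msln was −0.23. The hepatocyte median was 0.36 with the mean CPM of each cell and the endothelial median −0.15 when thinned. Without plasmacytoid dendritic cells, the conventional dendritic cell 2 median was 1.15, the plasmacytoid list 0.56, Bst2 0.70 and Tcf4 0.56. Without any other type they were 0.49 (list), 0.58 (Bst2) and 0.49 (Tcf4), with S100a8 at 0.77, S100a9 at 0.18, Upk3b, Krt7 and Msln at −0.23 and Lum at −0.76, all from the alternatives chosen after seeing the data. The fewer cells in these settings bear on each value, and no further cause was tested. Totals of 51184 to 367333 UMIs per restricted group limit what can be seen of genes with few UMIs.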
